A study of Mus musculus with 3 samples.

Results

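Kallikreins and other serine proteases of the trypsin fold were taken by gene symbol: every symbol that starts with Klk, with Prss or Tmprss and a number, or with Gzm and a letter from a to n, leaving out the thymus-specific protease gene Prss16. The rule gave 90 of 22609 genes, namely 15 genes of the Klk1 and Klk1b group, 12 genes from Klk4 to Klk15, the plasma kallikrein gene Klkb1, 36 Prss genes, 16 Tmprss genes and 10 granzyme genes. RNA was sequenced in 3 epithelial populations of C57BL/6 mice, with 1 library for each. Cortical (cTEC) and medullary (mTEC) epithelial cells of the thymus came from the pooled thymi of 14 mice at postnatal day 7, sorted as CD45-negative EpCAM-positive cells that carried Ly51 without binding the lectin UEA1 (cTEC) or bound UEA1 without Ly51 (mTEC). Skin epithelial cells (skinEC) were EpCAM-positive CD11c-negative keratinocytes of the trunk and back, pooled from 7 newborn mice. The animals carried no stated genetic change and received no stated treatment. A pool of animals in 1 library gives no spread between samples, so no difference below has a replicate check or a p-value.

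Values are RPKM, which divide a gene's reads by the length of its model and by the depth of sequencing. From the steps between low values, depth was estimated at about 56600000 reads (cTEC), 55500000 reads (mTEC) and 55900000 reads (skinEC). At these depths 3 reads on 1 kb of gene correspond to 0.0530, 0.0541 and 0.0537 RPKM. Marker sums for each population were highest in the library of that label. The 7 cTEC markers summed to 2496 RPKM in cTEC, 540 in mTEC and 7.21 in skinEC, and the 7 mTEC markers to 18.2, 1753 and 8.84 RPKM. The 7 basal keratinocyte markers summed to 312, 950 and 32387 RPKM. In bulk libraries such as these, fewer cells of a type and less RNA per cell cannot be told apart.

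Proteases of this fold cut proteins with a catalytic serine that works together with a histidine and an aspartate, and most are made as inactive precursors that another protease must cut. A pocket in the enzyme holds the residue before the cut. In trypsin an aspartate at the base of that pocket, 6 residues before the catalytic serine, selects arginine and lysine, and other residues there go with other preferences. Kallikreins are secreted and in the epidermis take part in shedding of the outermost cells, Prss genes encode a mixed set that includes the pancreatic trypsins, Tmprss proteins are anchored in the cell membrane, and granzymes are stored in the granules of cytotoxic lymphocytes. Medullary thymic epithelium is known for transcribing genes that otherwise mark single peripheral tissues, and several of these proteases are such genes.

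The active-site windows of the members show which of them carry the trypsin-type pocket, a property the name rule did not use. Each window below holds 30 bases of coding sequence from the GENCODE M21 mouse transcripts (GRCm38), on the coding strand, 5′ to 3′. The first capital triplet is the codon 6 before the catalytic serine and the second is the serine codon.
Klk1: GACacttgtgcgggtgacTCAggaggccca
Klk5: GACtcctgccagggtgatTCCggaggtcct
Klk14: GACtcctgtcagggtgatTCTgggggaccc
Prss2: GATtcctgccagggtgacTCTggtggccct
Prss8: GATgcctgccagggtgacTCTgggggccca
Tmprss4: GACacctgccagggtgacAGTggtgggcct
Klk7: AACacgtgcaatggtgacTCAggggggccc
Klk9: GGCtcttgccagggtgacTCTgggggaccc
Klk1b8: AACatttgcaagggtgacTCCggaggccca
Gzmb: GCTtcctttcggggggatTCTggaggcccg
The windows from Klk1 to Tmprss4 begin with an aspartate codon, and those from Klk7 to Gzmb do not.

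Windows were found by the run glycine, aspartate, serine, glycine, glycine in the translated frame, taking the run in the longest open frame and the first one where a protein has several. The run was found in 72 of the 90 members, and in 0.436% of the coding genes outside the set. Of these 72, 56 had an aspartate codon at the pocket position (30 GAC and 26 GAT) and 16 had another codon. The codon was an aspartate codon in 16 of 16 Tmprss genes, 9 of 11 genes from Klk4 to Klk15, 10 of 14 genes of the Klk1 and Klk1b group and 19 of 23 Prss genes, but in 1 of 7 granzyme genes (Gzmk). The label trypsin-like therefore holds for most of the set at this position and not for Klk7, Klk9 or most of the granzymes. For the other 18 members the letters of the run were not found in these transcripts. The serine codon was of the AGT or AGC type in 9 of the 72 members, 6 of them Tmprss genes and 3 of them Prss genes, and of the TC type in the other 63. Members with an aspartate codon reached 1 RPKM in mTEC in 43 of 56 cases and in skinEC in 13, and those with another codon in 14 and 4 of 16, so that members of both types were transcribed in both populations.

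Most of the set was transcribed in mTEC and little of it in cTEC. At 1 RPKM or more there were 68 of 90 members in mTEC, 21 in skinEC and 9 in cTEC, which is 75.6%, 23.3% and 10% of the members against 72.4%, 53.5% and 55.7% of all genes. The share in mTEC was thus near that of genes in general, and the shares in cTEC and skinEC were far below it. At 10 RPKM or more there were 28 (mTEC), 8 (skinEC) and 2 members (cTEC). These were 31.1%, 8.89% and 2.22% of the members, against 36.5%, 33.9% and 34.2% of all genes. At this level the share in mTEC was also below that of all genes. The summed level was 1012 (mTEC), 446 (skinEC) and 50.8 RPKM (cTEC), or 0.213%, 0.075% and 0.011% of each library's summed RPKM. In mTEC the sum was spread widely, with 31.5% in the 5 leading members, whereas the 5 leading members held 75.2% in skinEC and 76.5% in cTEC. Over all 90 members, 42 were listed at 0 in cTEC, 50 in skinEC and 1 in mTEC, and none was listed at 0 in all 3. Of the 22609 genes, 4989 (cTEC), 5887 (skinEC) and 1644 (mTEC) were listed at 0, so mTEC had the fewest in general. A 0 in the table may also arise when reads could not be assigned, which is why such genes are described only as listed at 0.

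Differences were counted from a ratio of 4 in RPKM + 1 (2 on the log2 scale) upward, over the 16869 genes that reached 1 RPKM in any library. This filter was passed by 70 members, of which 59 (84.3%) had their highest value in mTEC, 9 (12.9%) in skinEC and 2 (2.86%) in cTEC. Over all 16869 genes these shares were 40.1%, 33.9% and 26.1%. Of the 70, 46 reached 1 RPKM in mTEC alone (65.7%, against 19.7% of all genes), and such members could be called only toward mTEC. At least 4-fold higher in mTEC than in cTEC were 46 of the 70 (background 15.2% of all genes), and 0 were higher in cTEC (background 2.69%). Between mTEC and skinEC, 37 of the 70 were higher in mTEC (background 16.8%) and 2 in skinEC (background 4.2%). Between cTEC and skinEC, 12 were higher in skinEC (background 5.82%) and 1 in cTEC (background 6.3%). Because the filter let so many members in through mTEC, the counts toward mTEC describe the members that passed and are no separate support. The comparisons share libraries, so their counts are not independent. Of the 46 members, 17 were listed at 0 in cTEC, and of the 37, 26 were listed at 0 in skinEC.

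The median log2 ratio of the members was -2.68 for cTEC over mTEC, against -0.08 for all genes, and 2.23 for mTEC over skinEC, against 0.16. Over the members above 0 in both libraries the medians were -2.59 (44 members) and 1.05 (35 members). For cTEC over skinEC the median was 0, since most members were close to 0 in both libraries. The members nearest the 4-fold rule were Prss37 (-2.18) inside it and Tmprss2 (-1.99) outside it for cTEC over mTEC, and Tmprss9 (2.11) inside and Klk11 (-1.97) outside for mTEC over skinEC. Klk11 passed the rule with a pseudocount of 0.1 RPKM (-2.13) and with the median of all genes centred at 0 (-2.14).

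**Figure D1:**
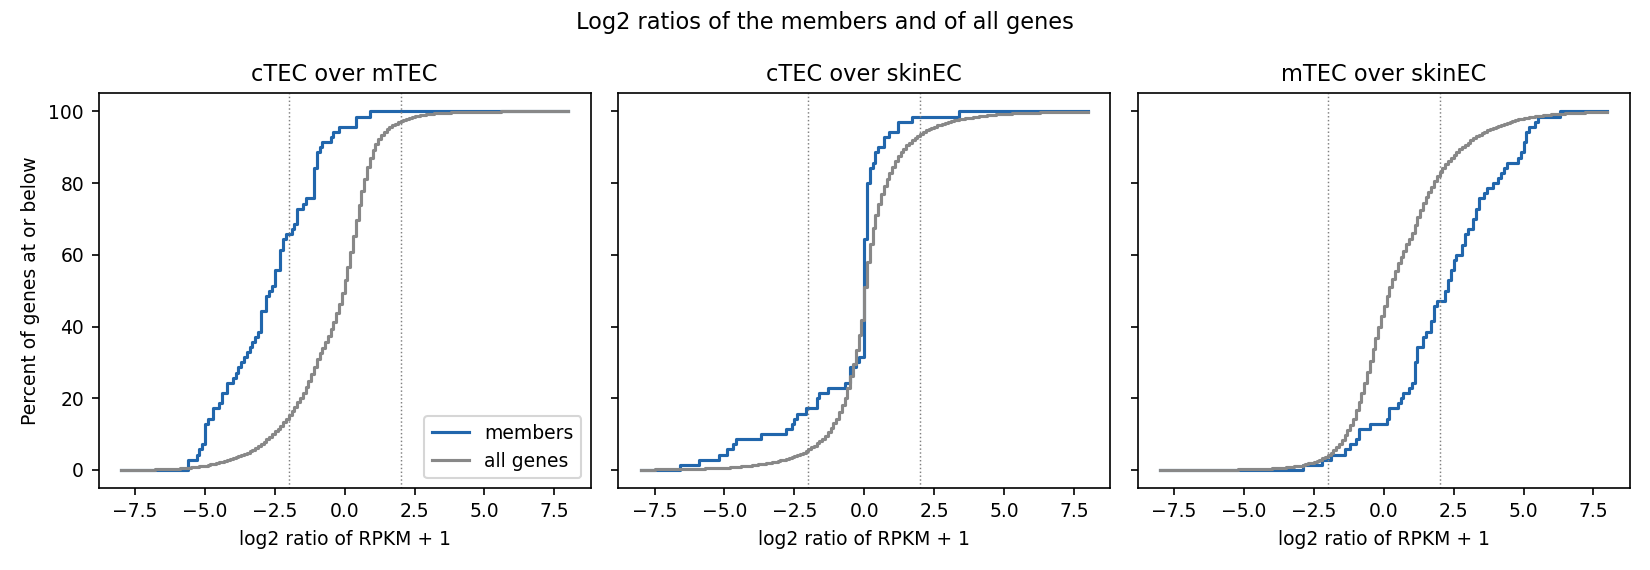
Cumulative percent of genes (vertical axis) at or below each log2 ratio of RPKM + 1 (horizontal axis) for the 70 members (blue) and all 16869 genes (grey) that reached 1 RPKM in any library; dotted lines mark the 4-fold rule. The members lie to the left of all genes for cTEC over mTEC (median -2.68) and to the right for mTEC over skinEC (median 2.23), and bunch at 0 for cTEC over skinEC.

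The tissue kallikreins of the Klk1 and Klk1b group were high in mTEC and at or below 0.605 RPKM elsewhere. Klk1 (Entrez 16612), which releases kinins from kininogen, was at 77.6 (mTEC), 0.605 (cTEC) and 0.0204 RPKM (skinEC). That was the second highest value of the whole set in mTEC, after Tmprss4. The Klk1b genes are a rodent expansion best known from the salivary gland. Klk1b11 was at 41.5 RPKM, Klk1b9 at 38.6 RPKM, Klk1b26 at 32.9 RPKM, Klk1b16 at 30.7 RPKM and Klk1b8 at 25.9 RPKM in mTEC. Klk1b9, Klk1b22 (19.1 RPKM) and Klk1b26 encode proteins that bind epidermal growth factor, and Klk1b3 (16.7 RPKM) and Klk1b4 (15.2 RPKM) encode subunits of the nerve growth factor complex of that gland. Klk1b1 was at 11.8 RPKM, and Klk1b5, Klk1b27, Klk1b21 and Klk1b24 lay between 4.15 and 8.90 RPKM. The pseudogene Klk1b7-ps was lowest at 1.81 RPKM.

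All 15 genes of the group thus reached 1 RPKM in mTEC, against 72.4% of all genes. None did in cTEC or skinEC, against 55.7% and 53.5% of all genes. In cTEC 6 were listed at 0, Klk1b11 was at 0.308 RPKM, and the Klk1b genes otherwise lay at or below 0.0796 RPKM (Klk1b27). In skinEC 13 were listed at 0, the exceptions being Klk1 and Klk1b1 (0.0211 RPKM). By the 4-fold rule 14 of the 15 were higher in mTEC than in cTEC and the same number than in skinEC (backgrounds 15.2% and 16.8%). Klk1b7-ps was the exception (log2 ratio 1.49 toward mTEC in each).

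Close copies limit the values of single Klk1b genes. Between 1.87% and 33.9% (median 17.1%) of the distinct 50-base windows in their transcripts also occur in the transcripts of another gene, and 14 of the 15 have over 10%. Klk1b24 (33.9%) and Klk1b21 (29.1%) share most, largely with each other. The authors' way of assigning such reads is not stated in the labels or headers. The order among Klk1b genes is therefore uncertain, while their joint level in mTEC (337.8 RPKM with Klk1, against 1.22 RPKM (cTEC) and 0.0416 RPKM (skinEC)) depends less on it. Genes from Klk4 to Klk15 share at most 0.427% of their windows. Salivary markers other than the Klk1b genes were uneven in mTEC: 6 of 8 reached 1 RPKM, where 72.4% of all genes did. The markers summed to 49.3 RPKM in mTEC, against 3.71 RPKM (cTEC) and 3.795 RPKM (skinEC). Dcpp1 was at 28.3 RPKM and Dcpp2 at 11.7 RPKM, but Smgc was at 0.297 RPKM and Smr2 at 0.160 RPKM. Their part in the level of the Klk1b genes was not tested.

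Among the kallikrein-related genes from Klk4 to Klk15, all 12 reached 1 RPKM in mTEC, 8 in skinEC and 0 in cTEC. These shares were 100%, 66.7% and 0%, against 72.4%, 53.5% and 55.7% of all genes. Klk7 (Entrez 23993), a protease that cuts the junction proteins of the cornified layer and one of those with a non-aspartate pocket codon, was the highest, at 98.5 (skinEC), 50.4 (mTEC) and 0 RPKM (cTEC). Klk5 (Entrez 68668), which activates other kallikreins of the skin, was at 31.7 (skinEC), 22.0 (mTEC) and 0.0856 RPKM (cTEC). For both, skinEC exceeded mTEC by less than the 4-fold rule (log2 ratios of mTEC over skinEC -0.95 and -0.51).

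The other kallikreins abundant in skin were those with the values furthest toward skinEC. Klk10 was at 62.7 RPKM (skinEC) and 12.8 RPKM (mTEC), the one kallikrein at least 4-fold higher in skinEC (log2 ratio -2.21). This call rested on the scale: the ratio was -1.93 on the TPM scale. It was -1.95 when every library was scaled without the genes that were among the 50 largest of any library. Klk11 was at 25.2 RPKM (skinEC) and 5.67 RPKM (mTEC), and Klk8, which encodes neuropsin, at 38.1 and 15.1 RPKM. Klk10 is listed at 0 in cTEC, where Klk11 was at 0.069 RPKM and Klk8 at 0.468 RPKM.

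A further group lay toward mTEC. Klk14 (Entrez 317653), a trypsin-type protease also implicated in epidermal shedding, was at 31.0 RPKM (mTEC) and 0.0564 RPKM (skinEC), a log2 ratio of 4.92. Klk4, known for processing tooth enamel matrix, was at 34.6 (mTEC), 0.0714 (cTEC) and 0 RPKM (skinEC). Klk6, which encodes neurosin, was at 37.3 against 4.70 RPKM and Klk13 at 26.2 against 2.91 RPKM, with 0.0533 and 0.171 RPKM in cTEC. Klk15 was at 8.65 RPKM in mTEC and 0 in skinEC, Klk12 at 5.54 against 0.289 RPKM, and Klk9 at 5.26 against 2.55 RPKM. By the 4-fold rule 6 of the 12 were higher in mTEC than in skinEC (background 16.8%), 1 was lower (background 4.2%) and 5 were within it. All 12 were at least 4-fold higher in mTEC than in cTEC (background 15.2%). In cTEC the highest was Klk14 at 0.473 RPKM.

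The Klk genes at 1 RPKM or more in skinEC stood together within the kallikrein cluster. In the order of RefSeq (GRCm38.p6, used here for gene order only, since the submitters' notes name mm9), 27 Klk genes run from Klk14 to Klk1. The 9 genes from Klk13 to Klk5 held the 8 Klk genes at 1 RPKM or more in skinEC, with Klk12 (0.289 RPKM) as the gap, and their median in skinEC was 25.2 RPKM. The other 18 Klk genes, Klk14 on one side and Klk4 to Klk1 on the other, had a highest value of 0.0564 RPKM in skinEC, and 0 of the 18 reached 1 RPKM. The borders of the stretch were drawn from these skinEC values, which fixes part of the contrast in skinEC. In mTEC the medians of the stretches were close, at 15.1 RPKM for the 9 genes and 17.9 RPKM for the 18. All 27 reached 1 RPKM in mTEC, 8 in skinEC and none in cTEC, against 72.4%, 53.5% and 55.7% of all genes. The 27 genes summed to 2.69 RPKM in cTEC.

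**Figure D2:**
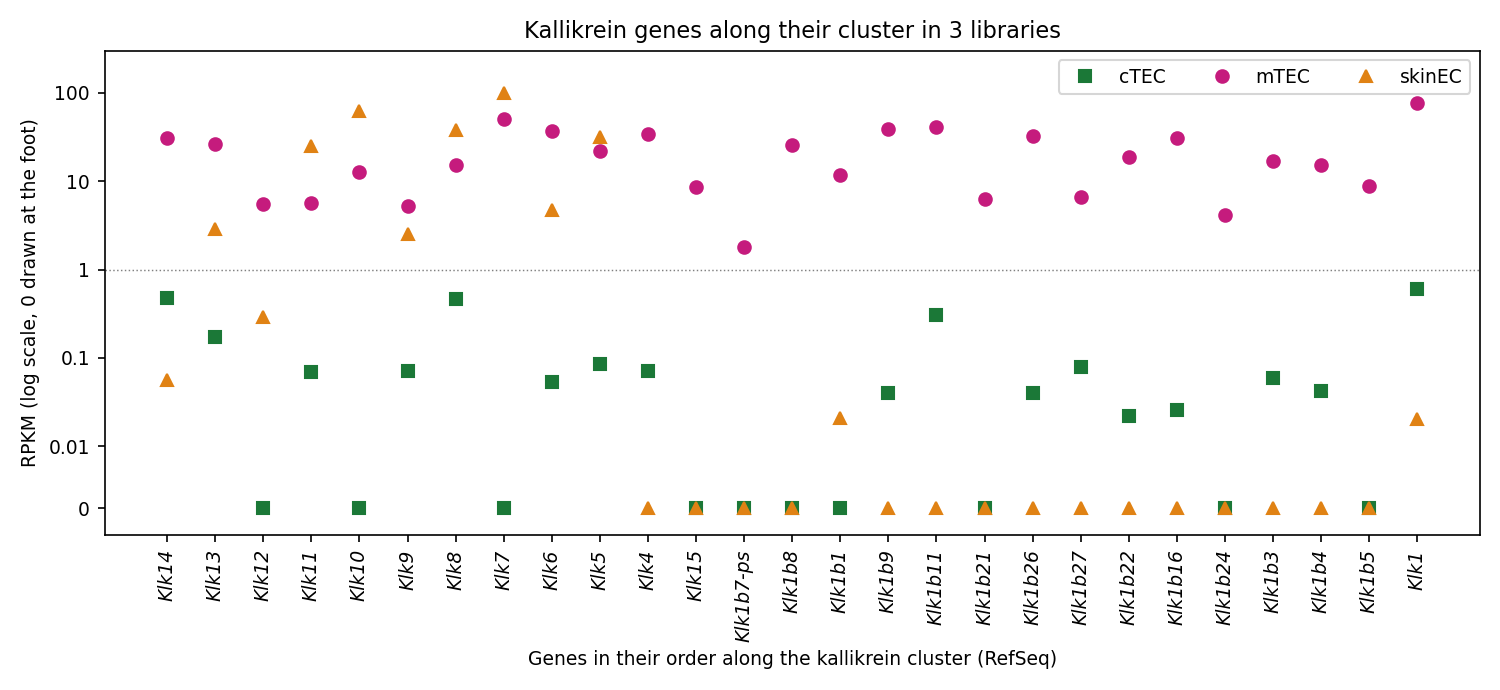
RPKM (log axis, with 0 drawn at the foot) of the 27 Klk genes in their order along the cluster in cTEC (squares), mTEC (circles) and skinEC (triangles); the dotted line is 1 RPKM. In mTEC all 27 lie above the line, in cTEC none does, and the 8 above it in skinEC all lie between Klk13 and Klk5.

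Markers of granular keratinocytes, the cells of the epidermis that secrete kallikreins, were present in the same libraries as Klk5 and Klk7. All 9 measured markers were at 1 RPKM or more in mTEC and in skinEC and 2 were in cTEC. Of all genes, 72.4% (mTEC), 53.5% (skinEC) and 55.7% (cTEC) were at that level. All 9 were at least 4-fold lower in cTEC than in mTEC (background 15.2%) and than in skinEC (background 5.82%). Their summed level was 391 (mTEC), 4205 (skinEC) and 9.97 RPKM (cTEC). Krt1 and Krt10, which make up most of the sum in skinEC, were at 25.6 and 63.4 RPKM (mTEC) against 1940 and 1998 RPKM (skinEC), whereas Lor (38.0 against 30.3 RPKM) and Ivl (9.03 against 8.50 RPKM) were at like levels. No marker was listed at 0, and Cdsn and Dsg1a of this list are also substrates described further on. Their part in the kallikrein levels was not tested.

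The plasma kallikrein gene Klkb1, a liver gene, was low everywhere, at 0.703 (mTEC), 0.0646 (cTEC) and 0.0582 RPKM (skinEC), and did not pass the filter. It shares 42.7% of its windows with other genes, almost all with the gene model Gm45753.

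Of the 36 Prss genes, 21 reached 1 RPKM in mTEC, 8 in skinEC and 6 in cTEC. These shares were 58.3%, 22.2% and 16.7%, against 72.4%, 53.5% and 55.7% of all genes. Of the 23 that passed the filter, 11 were at least 4-fold higher in mTEC than in cTEC and 0 were lower (backgrounds 15.2% and 2.69%). Prss29 (Entrez 114662), an implantation serine protease of the uterus, was the highest in mTEC at 32.2 RPKM, and is listed at 0 in the other libraries. Its neighbour and relative Prss28 was at 2.06 (mTEC), 0.0148 (cTEC) and 0 RPKM (skinEC). Next to them Prss34 (Entrez 328780), which encodes a protease of mast cells and basophils, was at 27.6 (mTEC), 0.0436 (cTEC) and 0 RPKM (skinEC).

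The mast cell markers, like Prss34, had their highest values in mTEC. In mTEC 7 of 8 reached 1 RPKM, in cTEC 1 and in skinEC 0, against 72.4%, 55.7% and 53.5% of all genes. The list summed to 392 (mTEC), 4.08 (cTEC) and 0.221 RPKM (skinEC). Hdc, the histidine decarboxylase gene, held 301 RPKM of the sum in mTEC, and Kit, a receptor gene of mast cells, was at 46.6 RPKM there against 3.37 RPKM in cTEC. Tpsb2, a mast cell tryptase gene, was at 16.6 RPKM in mTEC, and Fcer1a, Ms4a2 and Cpa3 at 2.53, 2.07 and 0.533 RPKM. Their part in the level of Prss34 was not tested.

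The pancreatic trypsins were transcribed in mTEC and scarcely elsewhere. Prss2 was at 17.9 RPKM and Prss1 at 10.6 RPKM in mTEC, and each is listed at 0 in cTEC and skinEC. Prss3 was at 1.24 (mTEC), 0.0441 (skinEC) and 0 RPKM (cTEC). Prss1 shares 54.9% of its 50-base windows with other genes, Prss3 66.1% and Prss2 7.83%, so the split among trypsin genes is uncertain and Prss2 is the firmest of them. The active-site windows of Prss1 and Prss2 have the same letters. Tmprss15, which encodes enteropeptidase, the activator of trypsinogen in the gut, was at 2.62 (mTEC), 0.0143 (cTEC) and 0 RPKM (skinEC). Of 10 markers of the exocrine pancreas, 8 reached 1 RPKM in mTEC (cTEC 2, skinEC 1), against 72.4%, 55.7% and 53.5% of all genes. The marker sums were 116 (mTEC), 8.06 (cTEC) and 1.92 RPKM (skinEC). The chymotrypsin gene Ctrb1 was at 72.5 RPKM in mTEC and 0 in the others, the amylase gene Amy2a5 is listed at 0 in all 3 libraries, and Cpa1 was at 0.308 RPKM in mTEC. Their part in the trypsin levels was not tested.

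A small group of Prss genes was shared by all 3 epithelia. Prss8 (Entrez 76560), which encodes prostasin, a surface protease that regulates the epithelial sodium channel, was at 21.1 (mTEC), 10.3 (cTEC) and 7.67 RPKM (skinEC). Its neighbours Prss36 and Prss53 were at 5.25 and 17.0 RPKM (mTEC), 6.72 and 2.78 RPKM (cTEC) and 1.40 and 4.42 RPKM (skinEC). These 3 neighbours and the membrane proteases Tmprss2 and Tmprss4 were the 5 members at 1 RPKM or more in every library. Prss53 shares 74.4% of its windows with the gene model Gm21974, so its level may hold reads of that model.

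Prss33 was the member with the highest value in cTEC, at 10.8 RPKM against 5.58 RPKM (mTEC) and 0.194 RPKM (skinEC). It was the 1 member at least 4-fold higher in cTEC than in skinEC (log2 ratio 3.31). Prss33 and Prss36 were the 2 members of the 70 with their highest value in cTEC, and both were within 4-fold of mTEC (log2 ratios 0.85 and 0.30). In the same run of 7 neighbours as Prss33, Prss27 (marapsin) was at 11.1 RPKM in mTEC, with 1.14 RPKM (cTEC) and 0.187 RPKM (skinEC). Prss22 was at 8.85 RPKM (mTEC) and 7.73 RPKM (skinEC) but 0.173 RPKM in cTEC. Prss30 (6.31 RPKM) and Prss32 (4.84 RPKM) were seen mainly in mTEC. Prss41 was low in all 3, with its highest value of 1.39 RPKM in mTEC.

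Prss23 had the lowest ratio of mTEC over skinEC of the 70 members. It was at 11.8 (skinEC), 1.22 (cTEC) and 0.710 RPKM (mTEC), and so at least 4-fold higher in skinEC than in each thymic library (log2 ratio -2.53 for cTEC over skinEC and -2.91 for mTEC over skinEC). Prss12, which encodes the neuronal protease motopsin, was the 1 member at 1 RPKM or more in skinEC alone, at 1.63 RPKM against 0.256 RPKM (mTEC) and 0.0542 RPKM (cTEC). Prss35 was at 5.66 RPKM (skinEC) and 8.18 RPKM (mTEC) but 0.0700 RPKM in cTEC. Prss57, known from neutrophil granules, was at 5.46 (skinEC), 2.24 (mTEC) and 0.472 RPKM (cTEC).

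Testis-type Prss genes were the low end of the set. The run of 6 neighbours from Prss42 to Prss50 lay between 0.102 and 1.13 RPKM in mTEC, and 5 of the 6 are listed at 0 in cTEC and in skinEC. Prss37, Prss51 and Prss52 were higher, at 3.54, 2.41 and 1.07 RPKM in mTEC, with 0 in the other libraries. The testisin gene Prss21 was at 0.385 RPKM in mTEC. Of 9 sperm and germ cell markers, 4 reached 1 RPKM in mTEC, a smaller share than the 72.4% of all genes. In cTEC and skinEC 0 did, against 55.7% and 53.5% of all genes. Prm1 led these markers at 4.24 RPKM in mTEC. Prss48 was the 1 member listed at 0 in mTEC, and was at 0.207 RPKM in skinEC.

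**Figure D3:**
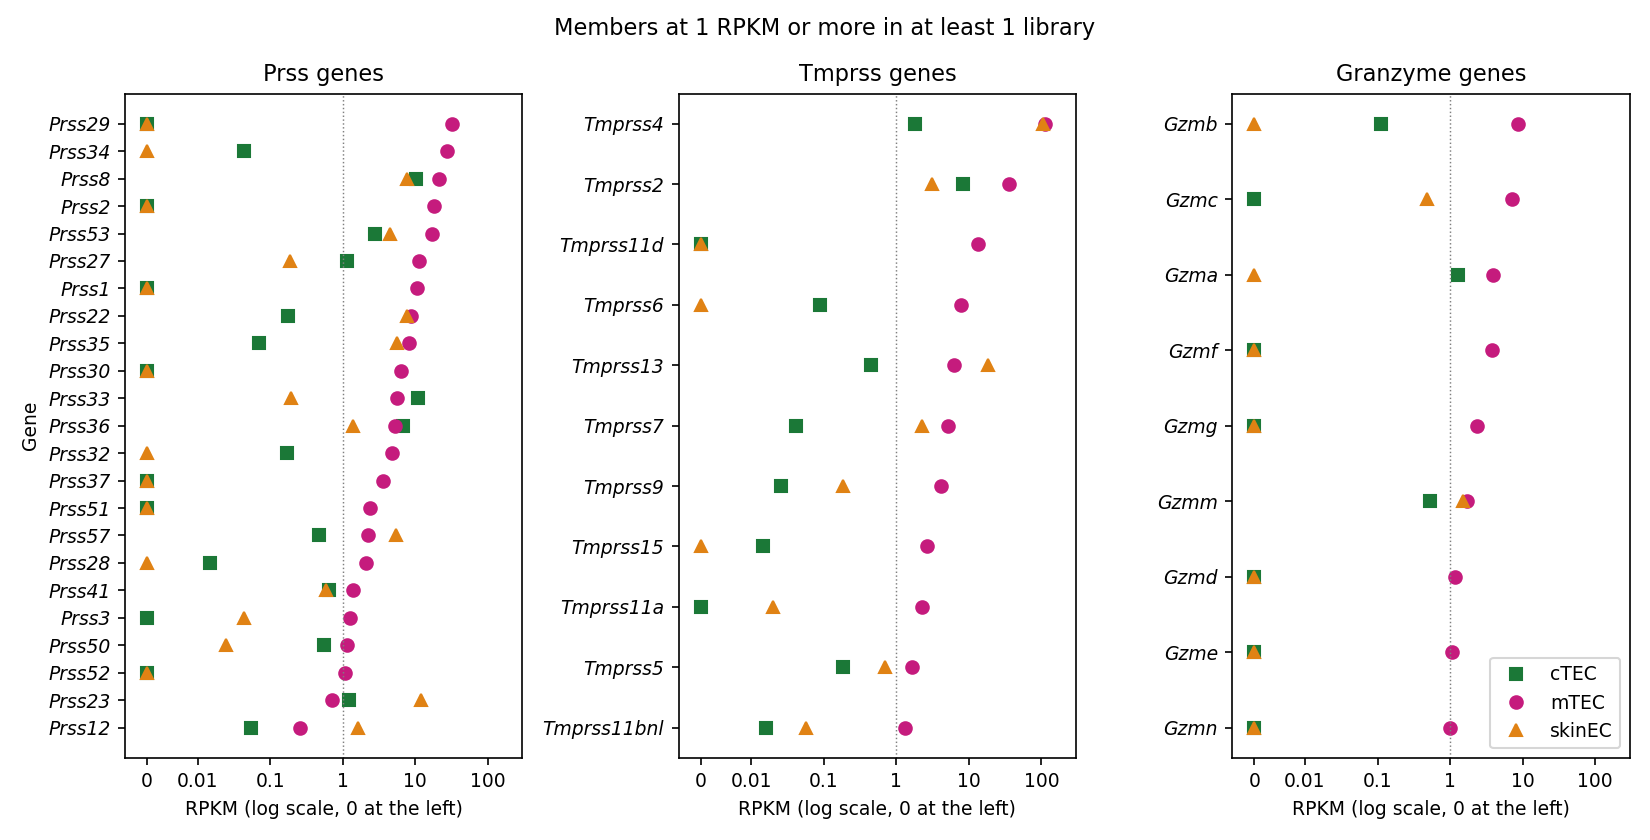
RPKM (log axis, with 0 drawn at the left) of the Prss, Tmprss and granzyme genes that reached 1 RPKM in any library, ordered by their value in mTEC, in cTEC (squares), mTEC (circles) and skinEC (triangles); dotted lines mark 1 RPKM. Prss29, Prss34 and Tmprss4 reach 32.2, 27.6 and 111 RPKM in mTEC, Prss33 is highest in cTEC, and Prss23 is highest in skinEC.

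Among the 16 membrane-anchored Tmprss genes, 11 reached 1 RPKM in mTEC, 4 in skinEC and 2 in cTEC. These shares were 68.75%, 25% and 12.5%, against 72.4%, 53.5% and 55.7% of all genes. Tmprss4 (Entrez 214523) had the highest value of the whole set in both mTEC (111 RPKM) and skinEC (104 RPKM), and was at 1.78 RPKM in cTEC. The log2 ratio of mTEC over skinEC was 0.08, or -0.08 with the median of all genes centred at 0, and those of cTEC over mTEC and over skinEC were -5.32 and -5.24. Tmprss2, an androgen-regulated protease of several secretory epithelia, was at 35.8 (mTEC), 8.27 (cTEC) and 3.06 RPKM (skinEC). Its log2 ratio of cTEC over mTEC, -1.99, lay just short of the rule, and passed it with a pseudocount of 0.1 RPKM (-2.10), on the TPM scale (-2.02) and without the 50 largest genes (-2.0016).

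Of the 11 Tmprss genes tested, 4 were at least 4-fold higher in mTEC than in skinEC (background 16.8%) and 7 were within 4-fold. The 4 were Tmprss2, Tmprss6, Tmprss9 and Tmprss11d. Tmprss13, a protease of the epidermis, was at 18.5 (skinEC), 6.21 (mTEC) and 0.441 RPKM (cTEC), with a log2 ratio of mTEC over skinEC of -1.43. Tmprss11d, the airway trypsin-like protease, was at 13.4 RPKM in mTEC but 0 in the others. Tmprss6, which encodes the liver protease matriptase-2 that restrains hepcidin, was at 7.84 (mTEC), 0.0886 (cTEC) and 0 RPKM (skinEC). Tmprss7 was at 5.08 and 2.26 RPKM in mTEC and skinEC, and Tmprss9 at 4.10 and 0.181 RPKM. Tmprss5 was at 1.65 RPKM (mTEC) and 0.690 RPKM (skinEC). The 5 neighbours of Tmprss11d on its chromosome were lower than it in mTEC. Tmprss11a was at 2.26 RPKM and Tmprss11bnl at 1.33 RPKM, and Tmprss11e, at 0.846 RPKM in mTEC, was at 0.903 RPKM in skinEC. Tmprss3, whose loss causes deafness in humans, was at 0.514 RPKM in mTEC.

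**Figure D4:**
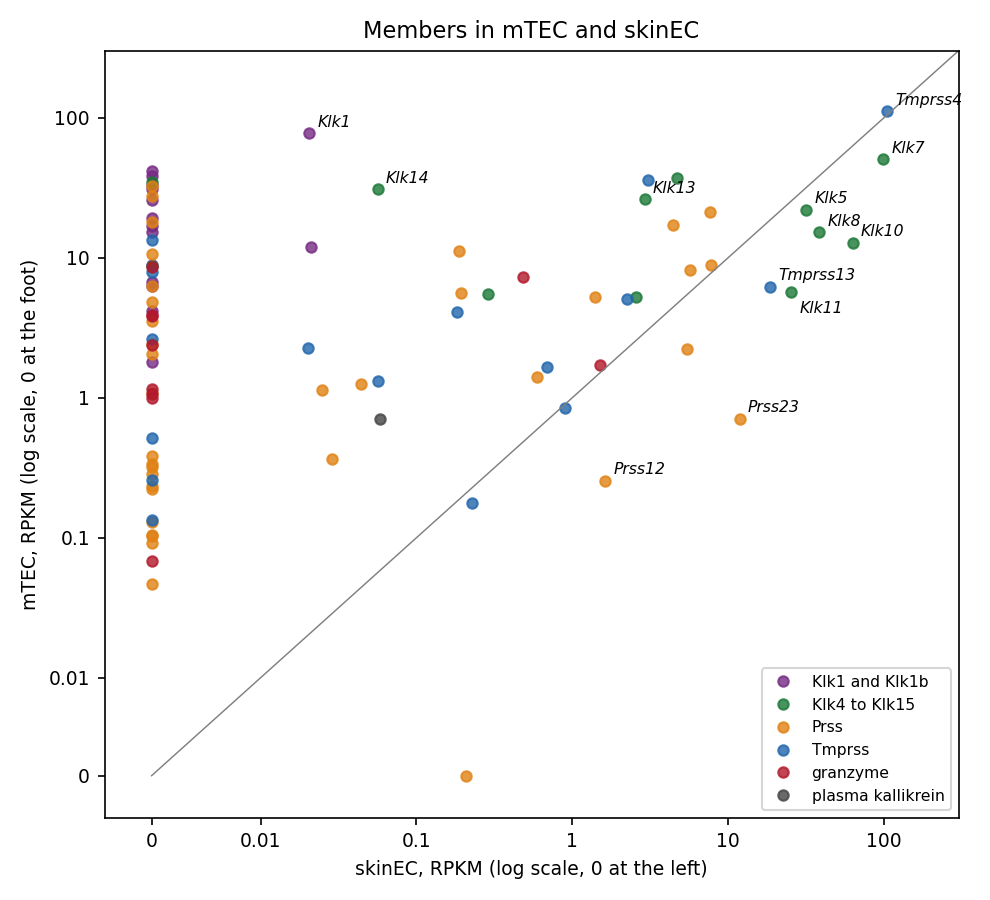
RPKM in skinEC (horizontal) against mTEC (vertical) for the 90 members, coloured by subfamily, on log axes with 0 drawn at the edge; the line marks equal values. Members along the left edge are listed at 0 in skinEC, and Tmprss4 lies close to the line at 104 and 111 RPKM. Those below the line are higher in skinEC, among them Klk5, Klk7, Klk8, Klk10, Klk11, Tmprss13 and Prss23.

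Granzymes were low in mTEC, though most of them reached 1 RPKM there. Of the 10 genes, 9 (90%) reached 1 RPKM in mTEC and 1 (10%) in each other library. Over all genes these shares were 72.4% (mTEC), 55.7% (cTEC) and 53.5% (skinEC). No granzyme gene reached 10 RPKM, where 36.5% of all genes did in mTEC. Gzmb, whose product cuts after aspartate and sets off cell death, was at 8.53 (mTEC), 0.112 (cTEC) and 0 RPKM (skinEC). Gzmc was at 7.24 (mTEC), 0 (cTEC) and 0.479 RPKM (skinEC). Gzma, which encodes a granzyme of trypsin-type preference, was at 3.92 (mTEC), 1.27 (cTEC) and 0 RPKM (skinEC), and Gzmf was at 3.83 RPKM in mTEC and 0 in the others. The 4 members Gzmg, Gzmd, Gzme and Gzmn lay between 1.001 and 2.38 RPKM in mTEC and are listed at 0 elsewhere. They share between 5.57% and 21.9% of their windows with other genes, so their split is uncertain. Gzmm was nearly level between mTEC (1.71 RPKM) and skinEC (1.503 RPKM), and Gzmk, at 0.0683 RPKM in mTEC, did not pass the filter.

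By the 4-fold rule Gzmb, Gzmc and Gzmf were higher in mTEC than in cTEC, 3 of 9 tested, beside a background of 15.2%. The partners of granzymes were uneven in the same library. Prf1, the perforin gene needed to deliver granzymes into a target, was at 0.404 RPKM in mTEC and 0 in the others. Srgn, the granule proteoglycan gene, was at 1864 (mTEC), 5.07 (cTEC) and 0.515 RPKM (skinEC), and Ctsc, which encodes the protease that activates granzymes, was at 83.3, 7.10 and 38.8 RPKM.

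The median log2 ratio of cTEC over mTEC was -0.54 for T and natural killer cell markers and -1.12 for the granzymes that passed the filter. Of 14 such markers, 11 reached 1 RPKM in mTEC (cTEC 6, skinEC 1), where 72.4% of all genes did. The list summed to 51.7 (mTEC), 15.1 (cTEC) and 4.83 RPKM (skinEC). By the 4-fold rule 2 of 11 were higher in mTEC than in cTEC, a share near the background of 15.2% of all genes. They were Il2rb (6.17 against 0.0393 RPKM) and Tbx21 (19.4 against 1.64 RPKM). The T cell receptor component gene Cd3e was at 1.51 RPKM (mTEC) and 1.03 RPKM (cTEC), Cd8a at 1.15 and 0.604 RPKM, and Ncr1, which defines natural killer cells, at 0.0246 RPKM in mTEC and 0 in cTEC. Lck, a kinase gene of T cells, was at 7.90 RPKM (mTEC) and 5.27 RPKM (cTEC). Of 8 dendritic and myeloid markers, 6 reached 1 RPKM in mTEC and 2 in each of the other libraries. At that level were 72.4% (mTEC), 55.7% (cTEC) and 53.5% (skinEC) of all genes. The marker sums were 411, 122.6 and 7.99 RPKM in mTEC, cTEC and skinEC. Single genes carried these sums: Bst2 held 120.3 RPKM of the sum in cTEC and was at 107.03 RPKM in mTEC, and Lyz2 held 283 RPKM of the sum in mTEC. Ptprc, which encodes the CD45 protein that the thymic sort gated against, was at 8.014 RPKM (mTEC) and 1.07 RPKM (cTEC). The part of these markers in the granzyme levels was not tested.

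Inhibitors of these proteases were likewise highest in mTEC. Of 11 inhibitors measured, 7 were higher in mTEC than in cTEC by the 4-fold rule and 0 were lower, and 8 were higher in mTEC than in skinEC, beside backgrounds of 15.2% and 16.8%. The median log2 ratio of cTEC over mTEC was -2.39. Spink5, which encodes the inhibitor LEKTI that holds epidermal kallikreins in check, was at 46.2 (mTEC), 2.91 (cTEC) and 2.83 RPKM (skinEC). In skinEC Spink5 was therefore below Klk5 and Klk7, and in mTEC it lay between them in RPKM. Spink3, a trypsin inhibitor of the pancreas, was at 140 (mTEC), 0.544 (cTEC) and 0 RPKM (skinEC), and Spink12 at 17.9, 0.0397 and 0 RPKM. Spint1 and Spint2, inhibitors of membrane-bound proteases such as matriptase, were broad, with Spint2 at 606 (mTEC), 235 (cTEC) and 263 RPKM (skinEC). The granzyme inhibitor genes Serpinb9 and Serpinb6b were at 53.0 and 53.2 RPKM (mTEC), 11.7 and 4.89 RPKM (cTEC) and 0.316 and 0.857 RPKM (skinEC).

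Substrates and receptors were divided. Of 13 that passed the filter, 6 were at least 4-fold higher in mTEC than in cTEC (background 15.2%). The thrombin receptor gene F2r was the 1 higher in cTEC (22.2 against 4.59 RPKM, background 2.69%). Junction proteins cut by epidermal kallikreins were low in cTEC. Cdsn, the corneodesmosin gene, was at 15.5 (mTEC), 5.32 (skinEC) and 0.125 RPKM (cTEC), and Dsg1a at 44.7, 55.2 and 0.631 RPKM. Dsc1 was at 29.7 RPKM (skinEC) and 3.70 RPKM (mTEC). F2rl1, the gene of the receptor that trypsin-type proteases switch on, was at 35.4 (skinEC), 31.7 (mTEC) and 4.06 RPKM (cTEC). Scnn1a, a channel subunit regulated by prostasin, had its highest value in cTEC, at 70.7 RPKM against 30.04 RPKM (mTEC) and 4.66 RPKM (skinEC).

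**Figure D5:**
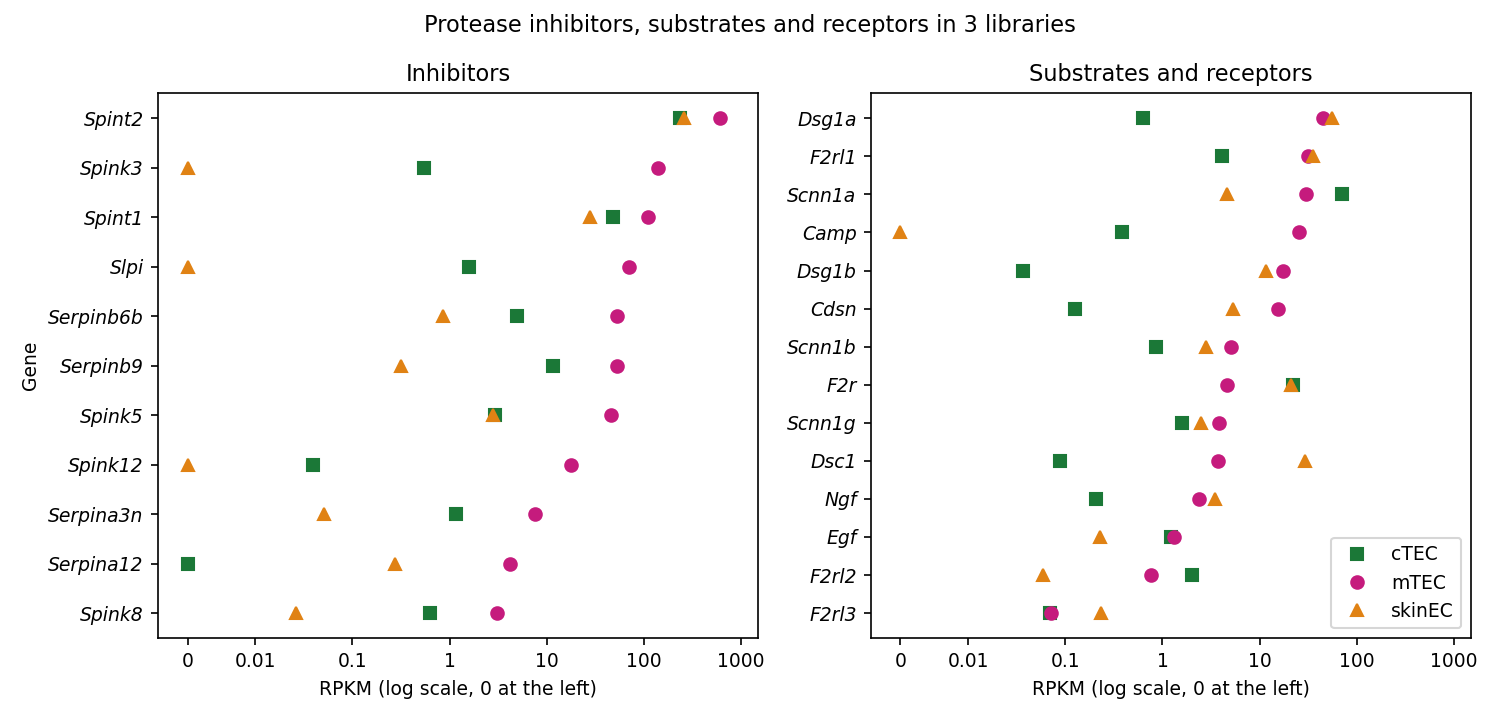
RPKM (log axis, with 0 drawn at the left) of 11 inhibitor genes and 14 substrate and receptor genes in cTEC (squares), mTEC (circles) and skinEC (triangles), ordered by mTEC. Every inhibitor shown is highest in mTEC, while Dsg1a, F2rl1 and Dsc1 are highest in skinEC and Scnn1a and F2r in cTEC.

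Serine proteases of related function outside the name rule followed the set toward mTEC. Of 19 tested, 11 were at least 4-fold higher in mTEC than in cTEC (background 15.2%) and 0 were lower (background 2.69%). Higher in mTEC than in skinEC were 10 (background 16.8%). The list shares 3 genes with the mast cell markers and 4 with those of the exocrine pancreas. St14, which encodes matriptase, the membrane protease upstream of prostasin, was at 96.3 (mTEC), 29.1 (cTEC) and 44.3 RPKM (skinEC). Plau, the urokinase gene, had its highest value in cTEC, at 62.7 RPKM against 26.4 RPKM (mTEC) and 27.9 RPKM (skinEC).

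The 20 members below 1 RPKM in every library were 13 Prss genes, 5 Tmprss genes, Gzmk and Klkb1. Their highest values ran from 0.0469 RPKM (Prss54) to 0.903 RPKM (Tmprss11e), and 17 of the 20 were highest in mTEC. They enter no ratio above.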

How the data were processed

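The deposited values are RPKM per gene, made by the authors, per the file headers, in a workbook of 5 sheets. RPKM on the later sheets repeat the first (largest difference 0). CASAVA 1.8.2 and mm9 appear, without role, in the submitters' processing notes. The aligner is not given in the sources used here, nor are annotation and strand. Genes with close copies or overlapping models are therefore uncertain. No member symbol stood on more than 1 row, and all 90 matched RefSeq by Entrez number. Ratios are log2 of (RPKM + 1) over (RPKM + 1), which understates low genes, for genes reaching 1 RPKM in any library. With 1 library per population there is no test. Depth came from whole-read steps of 391 low receptor genes in mTEC (78.5% whole within a tolerance of 0.02 reads) and from recurring ratios between libraries, in 14.6% (cTEC) and 25.5% (skinEC) of low genes. The depth estimate and the calling were tested on simulated data. Members at 10 RPKM or more are named, with lower ones where they hold a place in a subfamily, and at most 6 genes of each other list. Active-site windows came from transcripts in place of the protein tables first planned. The members and gene lists were chosen with earlier results of these data known. Python 3.11.15, pandas 2.3.3 and matplotlib 3.10.9 were used. Alternatives covered pseudocount, filter, scaling, repeated rows and close copies.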

Additional observations from a re-analysis of the deposited data

How the results depend on the processing

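Each population has 1 library, so nothing could be left out. No paired analysis was possible because each population has a single library and the ratios come from no test. No ratio past the 4-fold rule changed sign. The ratio of mTEC over skinEC for Tmprss4, 0.08 as reported, was -0.08 with the median of all genes centred at 0. Within 1.5 times of the reported value were 69 of 87 recomputed counts and medians. With a pseudocount of 0.1 RPKM the medians were -5.22 for cTEC over mTEC and 4.28 for mTEC over skinEC, since low genes then weigh more, and 7 members were higher in cTEC than in skinEC and 4 higher in skinEC than in mTEC. A filter at 5 RPKM gave medians of -3.46 and 2.94, and no filter 1.37 for mTEC over skinEC. On the TPM scale the medians were -3.43 and 2.89, with 2 members higher in cTEC than in skinEC, 1 higher in skinEC than in mTEC and 16 members at 1 or more in cTEC. That scale moves the median of all genes by 0.42 for mTEC over skinEC, by 0.17 for cTEC over skinEC and by -0.06 for cTEC over mTEC. It also raises the values of every library, while the pseudocount and the filter stayed at 1. Both therefore weigh less on that scale, where 73 members passed the filter. Scaling without the genes that were among the 50 largest of any library left 1 member higher in skinEC than in mTEC. That scaling moves the median of all genes by 0.23 for mTEC over skinEC. Without the Klk1b genes and Prss1 to Prss3, 22 of 53 members (41.5%) were higher in mTEC than in skinEC, against 37 of 70 (52.9%). Members at 0.1 RPKM or more numbered 23 in cTEC, and at 10 RPKM or more 2 in cTEC, 28 in mTEC and 8 in skinEC. Of 448 recomputed ratios of named members, 10 newly passed the rule, 2 no longer did and the others kept their side of it. By size, 57 of the 448 moved by 1.5 times or more, 35 with the pseudocount of 0.1 RPKM and 22 on the TPM scale.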

Other observations

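The genes that flank the kallikrein cluster in RefSeq order differed from one another. Ctu1, beside Klk14, had 7.15 RPKM (cTEC), 10.1 RPKM (mTEC) and 8.37 RPKM (skinEC). Siglece, a lectin gene of myeloid cells, followed with 0.0382, 4.35 and 0.0581 RPKM in the same order, and Ceacam18 with 0, 12.6 and 0 RPKM. Further out on that side, Zfp819 had 0.0147, 1.19 and 0.0148 RPKM, Zfp719 3.62, 4.81 and 1.10 RPKM, and Zfp658 1.76, 2.87 and 0.778 RPKM. On the side of Klk1, values were matched only at places 2 and 6 from the cluster. They were 2410002F23Rik, with 31.4, 26.6 and 39.4 RPKM, and Clec11a, with 38.3, 1.005 and 0.769 RPKM.

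Other serine protease genes outside the name rule were also transcribed in mTEC. The mast cell protease gene Mcpt1 had 14.2 RPKM there and 0 in the other libraries. The coagulation protease genes F2 and F10, known from liver, had 7.15 and 4.94 RPKM in mTEC, and in cTEC 0.231 and 0 RPKM.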
